A study of Mus musculus with 12 samples.

Results

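Meiotic recombination hotspots were examined at 162 genes of the ubiquitin system in the testis of Ankrd31 knockout and wild type mice. The genes were the protein-coding genes of the RefSeq annotation (GRCm38.p6) on the autosomes and X whose symbols begin with Usp, Ube2, Ube3, Ube4, Cul, Fbxo or Fbxw, and they made up 162 of 21631. The set held 56 Usp, 33 Ube2, 3 Ube3, 2 Ube4, 8 Cul, 36 Fbxo and 24 Fbxw genes. The symbols also bring in genes with other activities: Usp6nl encodes a GTPase-activating protein of Rab proteins, Uspl1 a SUMO isopeptidase, and Ube2f and Ube2m the conjugating enzymes of NEDD8.

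Ubiquitin is passed from an activating enzyme (E1) to a conjugating enzyme (E2, the Ube2 genes) and joined to a protein by a ligase (E3). HECT ligases (Ube3) carry it on a cysteine of their own, U-box ligases (Ube4) and cullin-RING ligases bring a loaded E2 to the substrate, and F-box proteins (Fbxo, Fbxw) choose substrates for the ligases built on CUL1. Deubiquitinases of the USP family remove ubiquitin again. In the testis the system marks histones, turns over cell cycle regulators and remodels the spermatid, and several of its genes are required for male fertility.

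The assay was DMC1 single-stranded DNA sequencing. This recombinase of meiosis binds the single-stranded tails beside a double-strand break, so an enriched interval, called a hotspot, marks a place where recombination starts. ANKRD31 belongs to the machinery that makes these breaks, and the series asked how its loss alters where recombination begins. The knockout group was 2 samples of whole testis from adult males given by the allele Ankrd31 tm1Atot, and the wild type group was 2 samples of whole testis from adult C57BL/6JCrl males. No label gives the genetic background of the knockout mice, so strain and genotype cannot be told apart. Chromatin and input samples of the same 2 genotypes at 13 days were not analysed here.

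A single hotspot list was deposited for each genotype, so the values have no replicate error and no test between genotypes was made. Strength is the number of reads in a hotspot minus an estimated background. The knockout list held 22034 hotspots with 4203380 reads and a median strength of 105, and the wild type list held 13480 hotspots with 4376692 reads and a median strength of 152. Of these, 11487 were shared (overlap of at least 1 bp), 10547 were listed in the knockout alone and 1993 in the wild type alone. The weakest listed hotspot had a strength of 16 in the knockout and 18 in the wild type, so a hotspot missing from a list may lie under its calling threshold. The lists hold no expression values, and neither the tissue label nor the loss of Ankrd31 could be checked from them.

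The promoter windows of 7 genes are shown first, because the knockout-only hotspots at gene ends that could be oriented lay almost all at gene starts. Each runs from 250 bases before to 50 bases after the listed start, 5′ to 3′ on the strand of the gene, from RefSeq (GRCm38.p6). Capitals mark matches on either strand to CCAAT, to the GC box letters GGGCGG, to the ETS core letters CCGGAA, to GCATGCG and to the TATA box letters TATAAA, and matches of GGGCGG may overlap each other. The windows are Usp11 at chrX:20703659-20703958 (+), Usp26 at chrX:51801184-51801483 (−), Ube2a at chrX:36874045-36874344 (+), Ube2d3 at chr3:135437982-135438281 (+), Cul3 at chr1:80340641-80340940 (−), Fbxo30 at chr10:11281337-11281636 (+) and Fbxw14 at chr9:109287627-109287926 (−). The first 6 lie inside a knockout hotspot, and Fbxw14, of a gene cluster with no hotspot at any gene end, is shown for contrast.
Usp11: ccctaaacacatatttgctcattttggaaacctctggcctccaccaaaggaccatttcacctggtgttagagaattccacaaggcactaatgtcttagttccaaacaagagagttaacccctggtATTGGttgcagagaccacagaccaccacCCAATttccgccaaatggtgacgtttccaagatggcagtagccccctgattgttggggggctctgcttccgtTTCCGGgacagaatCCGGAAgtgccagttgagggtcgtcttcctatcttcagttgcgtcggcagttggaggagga
Usp26: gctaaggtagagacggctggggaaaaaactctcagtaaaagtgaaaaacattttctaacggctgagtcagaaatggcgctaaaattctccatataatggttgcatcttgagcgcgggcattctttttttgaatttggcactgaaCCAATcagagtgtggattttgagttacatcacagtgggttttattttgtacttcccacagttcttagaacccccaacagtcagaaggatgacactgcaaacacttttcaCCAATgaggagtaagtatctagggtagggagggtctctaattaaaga
Ube2a: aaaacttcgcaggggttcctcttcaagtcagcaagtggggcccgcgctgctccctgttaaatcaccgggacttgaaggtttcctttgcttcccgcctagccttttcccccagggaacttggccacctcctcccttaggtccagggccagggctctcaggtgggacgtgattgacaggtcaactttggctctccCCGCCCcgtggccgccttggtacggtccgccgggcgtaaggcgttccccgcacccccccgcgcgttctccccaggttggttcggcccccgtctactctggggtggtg
Ube2d3: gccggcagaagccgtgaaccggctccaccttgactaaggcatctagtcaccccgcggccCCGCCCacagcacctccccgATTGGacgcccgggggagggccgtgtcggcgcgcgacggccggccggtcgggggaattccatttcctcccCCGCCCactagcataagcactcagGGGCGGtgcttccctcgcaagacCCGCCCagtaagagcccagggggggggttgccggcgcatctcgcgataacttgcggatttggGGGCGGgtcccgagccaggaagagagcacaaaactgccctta
Cul3: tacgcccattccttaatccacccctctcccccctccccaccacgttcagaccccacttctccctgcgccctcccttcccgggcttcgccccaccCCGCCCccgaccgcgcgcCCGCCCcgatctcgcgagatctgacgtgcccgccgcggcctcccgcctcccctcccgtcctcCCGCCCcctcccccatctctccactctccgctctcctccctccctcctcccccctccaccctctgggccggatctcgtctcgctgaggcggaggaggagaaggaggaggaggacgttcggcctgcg
Fbxo30: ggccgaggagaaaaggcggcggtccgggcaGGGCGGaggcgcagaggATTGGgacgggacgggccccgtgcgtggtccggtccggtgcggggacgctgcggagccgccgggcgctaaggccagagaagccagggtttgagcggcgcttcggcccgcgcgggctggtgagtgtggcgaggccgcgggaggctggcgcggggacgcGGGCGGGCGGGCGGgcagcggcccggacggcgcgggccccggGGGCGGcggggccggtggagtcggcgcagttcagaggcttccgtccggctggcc
Fbxw14: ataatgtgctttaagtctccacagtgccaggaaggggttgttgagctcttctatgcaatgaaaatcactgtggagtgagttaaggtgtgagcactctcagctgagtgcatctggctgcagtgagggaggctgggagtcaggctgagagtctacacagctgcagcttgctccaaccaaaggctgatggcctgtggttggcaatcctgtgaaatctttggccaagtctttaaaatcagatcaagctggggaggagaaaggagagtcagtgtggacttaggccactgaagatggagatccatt
The windows differ in base composition. The CG dinucleotide occurs 47 times in the window of Fbxo30, 29 times in those of Ube2d3 and Cul3, 20 times in that of Ube2a, 8 times in that of Usp11, 5 times in that of Usp26 and 0 times in that of Fbxw14.

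A hotspot counted as being at an end if no more than 1 kb separated its centre from the nearer end of the gene. In the knockout list 70 of 162 ubiquitin genes had such a hotspot (43.2%, exact binomial 95% interval 35.5 to 51.2%), and in the wild type list 2 of 162 did (1.23%, 0.15 to 4.39%). The same shares over all protein-coding genes were 27.1% in the knockout and 1.99% in the wild type. A hotspot listed in the knockout alone stood at an end of 68 of the 162 genes (42.0%, 34.3 to 49.97%), against 25.5% of all protein-coding genes. The intervals cover counting over genes only, and genes are not replicates of a condition.

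**Figure D1:**
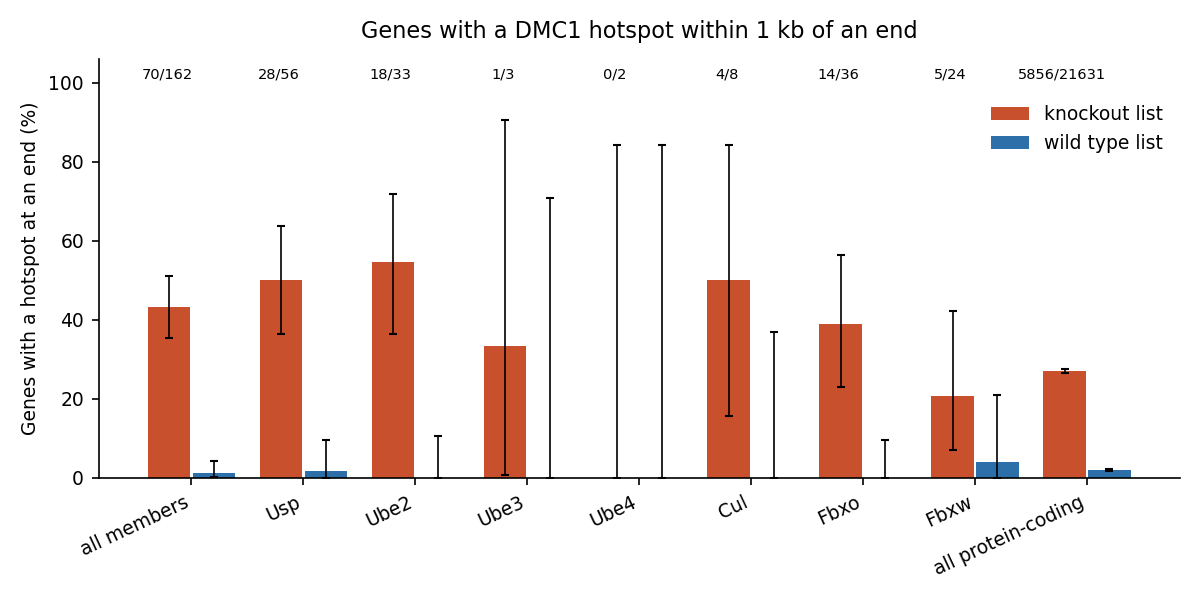
Share of genes (%, bars) with a hotspot centre within 1 kb of an end in the knockout list (orange) and the wild type list (blue), for the ubiquitin genes, each family and all protein-coding genes. Lines are exact binomial 95% intervals and the counts over the bars are genes in the knockout list; the knockout bar is 43.2% for the ubiquitin genes, 54.5% for Ube2 and 20.8% for Fbxw.

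The share ranged widely between families. Among the conjugating enzymes, a knockout-only hotspot stood at an end of 18 of 33 Ube2 genes (54.5%, 36.4 to 71.9%). It stood at an end of 4 of 8 cullin genes (50%, 15.7 to 84.3%), of 27 of 56 Usp genes (48.2%, 34.7 to 62.0%) and of 14 of 36 Fbxo genes (38.9%, 23.1 to 56.5%). For Fbxw it was 4 of 24 genes (16.7%, 4.74 to 37.4%). The intervals of these families overlap, and the order of Ube2, Cul and Usp was not stable: with a window of 500 bp the shares were 45.5% for Ube2, 50% for Cul and 42.9% for Usp. Of the ligases outside the cullin complexes, 1 of 3 Ube3 genes and 0 of 2 Ube4 genes had one.

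The Fbxw genes fall into 2 sets by position. A tandem cluster on chromosome 9, from 109139454 to 109790660, holds 15 of the 24 Fbxw genes, and 0 of the 15 had a hotspot at an end in the knockout (interval up to 21.8%) or in the wild type. Within the span of the cluster the knockout list had 3 hotspots and the wild type list had 1, and Fbxw23 was the one gene of the cluster with a hotspot inside, at a knockout strength of 41 and with none listed in the wild type. Outside the cluster a knockout-only hotspot stood at an end of 4 of 9 Fbxw genes (44.4%, 13.7 to 78.8%). The cluster of 3 Usp17l genes on chromosome 7 had 0 hotspots in either list. Genes of such clusters are closely related copies, reads from them may map to several places, and the part of this in the counts was not tested. A small cluster on chromosome 4 holds Fbxo2, Fbxo6 and Fbxo44, and a knockout-only hotspot stood at an end of 2 of these 3. Across the 141 genes outside the 3 clusters the share was 46.8% (38.4 to 55.4%).

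Among the conjugating enzymes, the strongest hotspot at an end was that of Ube2a, on X, one of the pair of RAD6 enzymes that ubiquitinate histones. It had a strength of 660 in the knockout (exact Poisson 95% interval of the reads 609 to 714), with no hotspot at the end in the wild type list, and its centre lay 275 bp inside the gene. Ube2b, the other RAD6 enzyme, whose loss makes male mice infertile, had no hotspot at an outer end but a knockout-only hotspot of 87 inside the gene, within 1 kb of a listed internal start. Ube2d3, an enzyme that works with many ligases, followed at 458 in the knockout and was not listed in the wild type. Ube2w, which modifies protein N termini, had 260, Ube2e3 had 254, and Ube2s, which lengthens chains on substrates of the anaphase-promoting complex, had 202 in the knockout, all with none in the wild type. Ube2r2, a relative of the cell cycle enzyme CDC34, had 190. Ube2n, which builds chains used in DNA damage signalling, had 164 in the knockout, and its inactive partner proteins Ube2v1 and Ube2v2 had 41 and 80. Ube2c, the initiating enzyme for the same complex as Ube2s, had none at an end in either list.

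The Ube2 hotspots were strong as well as frequent. Of 18 knockout-only hotspots at Ube2 ends, 14 had a strength of at least 100 (77.8%) and the median was 123, beside 46.3% and a median of 94 over 4920 such hotspots at all protein-coding genes. Across all the ubiquitin genes 37 of 67 reached 100 (55.2%) and the median was 104, with a range of 35 to 1474. In genes, 37 of 162 had a knockout-only end hotspot of at least 100, against 11.8% of all protein-coding genes. Ube2 was not alone in this: the median was 124.5 over 4 hotspots for Cul, 3 of them of at least 100 (75%). The 1 Ube3 hotspot had 143. Medians were 95 for Usp, 90 for Fbxo and 59 for Fbxw.

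**Figure D2:**
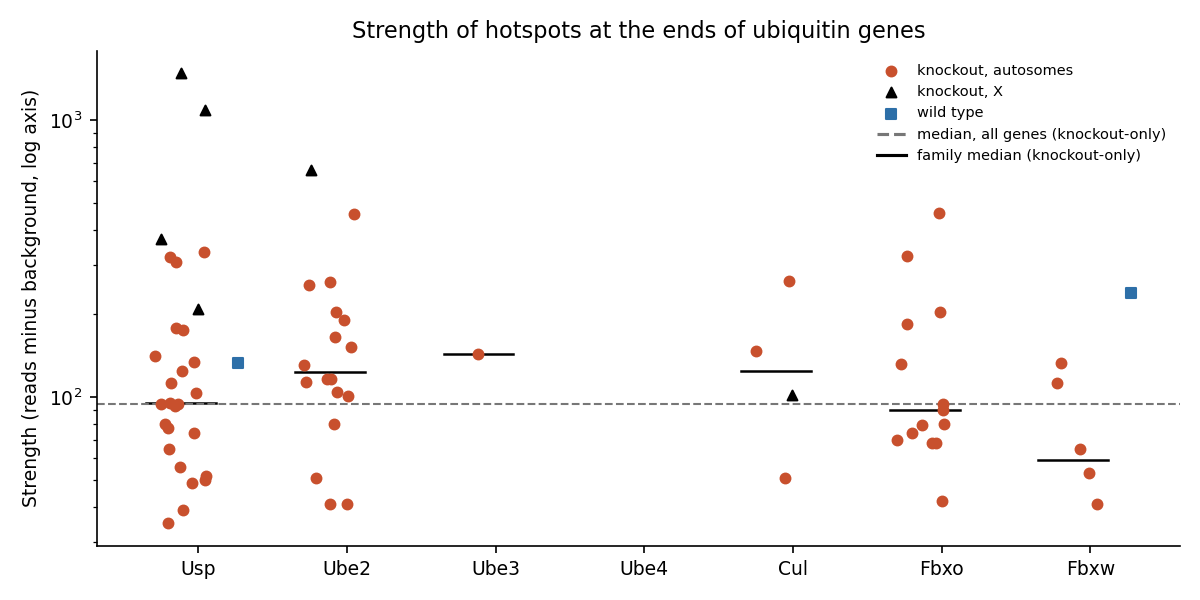
Strength (reads minus background, log axis) of each hotspot at the end of a ubiquitin gene, by family, with knockout hotspots on autosomes (orange circles) and X (black triangles) and wild type hotspots (blue squares). Short lines are family medians of the knockout-only hotspots and the dashed line is their median at all protein-coding genes, 94; the highest points are Usp9x (1474) and Usp11 (1083), both on X.

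Of the HECT and U-box ligases, Ube3c, a ligase that works at the proteasome, had a hotspot of 143 in the knockout, 137 bp inside the gene, and none at an end in the wild type. Ube3a, the ligase lost in Angelman syndrome, Ube3b, Ube4a and Ube4b had no hotspot within 1 kb of an end. The nearest to Ube4b lay at 1456 bp, just outside the window. It was a knockout-only hotspot with a strength of 284.

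Among the scaffolds, Cul3, which takes BTB-domain proteins as substrate receptors, had the strongest hotspot at an end, with 262 in the knockout and none in the wild type. Cul5 had 147 and Cul2 had 51, and both proteins form ligases with elongins. Cul4b, the X-linked DDB1-binding cullin, had 102 in the knockout, and its autosomal counterpart Cul4a, which is required for male fertility, had none in either list. Cul1, the scaffold of the F-box ligases, Cul7 and Cul9 had none at an end.

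Fbxo30 had the strongest F-box hotspot at an end, 463 in the knockout (421 to 508) and none in the wild type, with its centre 30 bp inside the gene. Fbxo5, which encodes the inhibitor EMI1 of the anaphase-promoting complex, had 323 in the knockout. Fbxo43, its relative EMI2 that acts in meiosis, had none at an end and a knockout-only hotspot of 209 inside the gene. Fbxo3 had 203, Fbxo11 had 184, Fbxo38 had 131 and Fbxo34 had 94, all in the knockout alone. Fbxo47, a gene needed for meiosis in male mice, had 74, and the remaining Fbxo hotspots ran down to 42 at Fbxo45. Fbxo2 and Fbxo44, neighbours in the cluster on chromosome 4, share 1 hotspot of 68, so the 14 Fbxo genes rest on 13 hotspots. Fbxo7 and Fbxo24 had none at an end.

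Of the WD40-repeat F-box genes, Fbxw7, which directs cyclin E to degradation, had 133 in the knockout, 450 bp before the gene and over 1 kb from its listed promoter start. Fbxw4 had 65, Fbxw5 had 53 and Fbxw11, one of the pair of beta-TrCP proteins, had 41, all with none at an end in the wild type. Fbxw17 was the exception on this side of the system. It had a shared hotspot at the end away from its start, with a strength of 112 in the knockout (91 to 136) and 237 in the wild type (207 to 270). Relative to the median of autosomal shared hotspots in each list, its log2 ratio of knockout over wild type was −0.81.

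Among the deubiquitinases, Usp9x, an X-linked enzyme needed in the germ line, had a hotspot of 1474 in the knockout (1397 to 1554) and none at an end in the wild type. It lies on X from 13069558 to 13073456 and was the 95th strongest of the 22034 hotspots of the list. Usp11, an X-linked enzyme linked to repair by BRCA2, was the one ubiquitin gene with a wild type hotspot at its start, with 1083 in the knockout (1019 to 1150) and 133 in the wild type (110 to 159). On relative strength it was 9.81-fold higher in the knockout, a log2 ratio of 3.29 (counting interval 3.02 to 3.57). The testis gene Usp26 had 373 in the knockout. Usp25 had 333 and its relative Usp28 had 177. Usp14, a deubiquitinase of the proteasome whose mutation gives ataxia in mice, had 321, and Usp6nl had 306. Usp1, which acts on FANCD2 and whose loss makes male mice infertile, had 124, with none at an end in the wild type for any of these. Usp7, which acts on the p53 regulator MDM2, had none at an end, and a knockout-only hotspot of 144 inside the gene lay within 1 kb of a listed internal start. The weakest Usp hotspot at an end was that of Usp40, with 35.

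On X, 6 of the 7 ubiquitin genes had a knockout hotspot at an end, and 5 of 7 had one in the knockout alone (71.4%, 29.0 to 96.3%), against 40.3% of all protein-coding genes on X. In the wild type 1 of 7 did, against 8.18%. These 5 were Usp9x, Usp26, Usp27x, Ube2a and Cul4b. Usp27x, a relative of the histone deubiquitinase Usp22, had 208. The seventh gene, Usp51, another of that group, had a knockout-only hotspot of 638 whose centre lay 1034 bp from the gene end, just outside the window. On the autosomes a knockout-only hotspot stood at an end of 63 of 155 ubiquitin genes (40.6%, 32.8 to 48.8%), against 24.8% of all autosomal genes, and a wild type hotspot at 1 of 155, against 1.7%. The median strength of these hotspots was 373 at the 5 X genes and 102 at 62 autosomal hotspots, and over all genes it was 219 on X and 90 on autosomes.

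The end hotspots lay at gene starts. Strand was known for 125 of the 162 genes, through the RefSeq promoter windows. A knockout-only hotspot stood at the start of 48 of these 125 genes (38.4%, 29.8 to 47.5%), against 25.3% of all protein-coding genes with a listed strand. Of 48 hotspots that could be oriented, 47 were at the start (97.9%) and 1, that of Usp4, at the other end, where 1.05% of all such genes had a knockout-only hotspot. Over all protein-coding genes the share at the start was 97.6%. Centres lay at a median of 69 bp inside the gene, from 450 bp before it to 825 bp within, and 35 of 47 lay within 250 bp of the start (74.5%, beside 72.3% over all genes). The Ube2 hotspots lay further out, with 6 of 14 within 250 bp, and all 8 oriented Fbxo hotspots were within it.

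**Figure D3:**
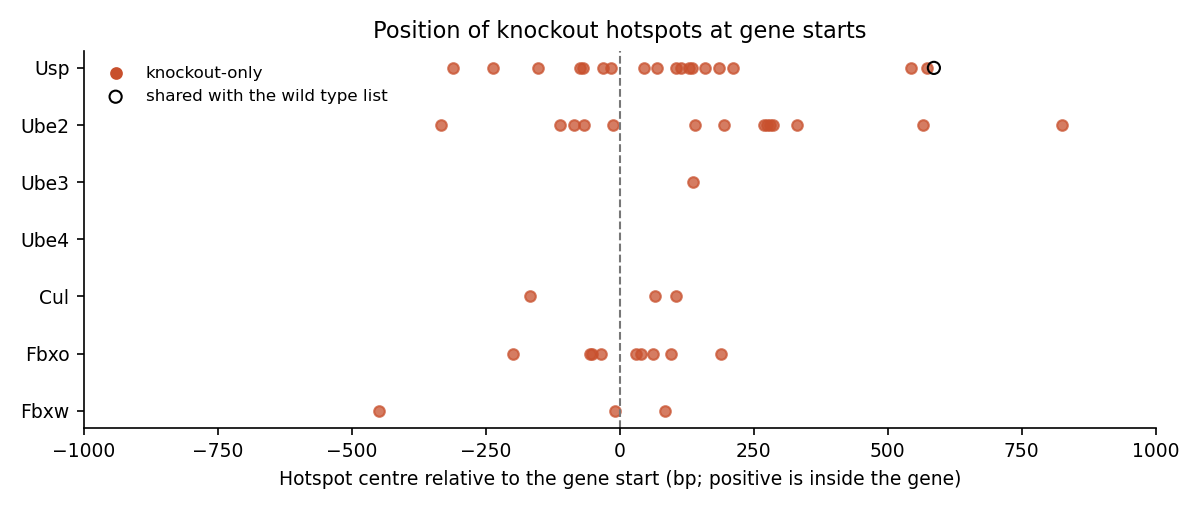
Distance (bp) of each knockout hotspot centre from the start of its gene, by family, with positive values inside the gene. Filled points are knockout-only hotspots and the open circle is the shared hotspot of Usp11 at 586 bp; the points run from −450 bp (Fbxw7) to 825 bp (Ube2e2).

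At the edge of the window, the last genes inside were Fbxw17 at 809 bp, Fbxw4 at 811 bp, Ube2e2 at 825 bp and Ube2e3 at 835 bp. The first outside were Usp51 at 1034 bp, Usp49 at 1267 bp, Fbxo46 at 1357 bp and Fbxo7 at 1428 bp. The median distance from a ubiquitin gene end to the nearest hotspot was 2354 bp in the knockout list and 36467 bp in the wild type list. The knockout list is the longer (22034 hotspots against 13480), and these distances were not computed over all protein-coding genes. Several genes can share an end, and 11 of the 67 knockout-only hotspots stood at the ends of more than 1 gene (16.4%, beside 13.2% over all genes).

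Base composition went with these positions. Of the 125 ubiquitin genes with a listed promoter window, 88 were CpG-rich (70.4%), with a CpG content over 0.6 of that expected from base composition, against 48.9% of all 17274 listed promoters. A knockout-only hotspot lay within 1 kb of the listed start of 46 of the 88 CpG-rich windows (52.3%) and 6 of the 37 CpG-poor ones (16.2%). Over all promoters these shares were 45.8% for CpG-rich and 8.85% for CpG-poor windows. In percentage points, the difference between ubiquitin genes and all genes was smaller within a CpG class than in the pooled shares, which were 41.6% and 26.9%. As a ratio of shares this did not hold for the CpG-poor windows, which rest on 6 of 37. Among CpG-rich windows it was 13 of 21 for Ube2, 17 of 31 for Usp, 3 of 5 for Cul, 9 of 21 for Fbxo and 2 of 5 for Fbxw. The other 14 Fbxw windows were CpG-poor and 0 of them had one. Usp26 had the strongest hotspot among CpG-poor windows with one, at a CpG ratio of 0.40.

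**Figure D4:**
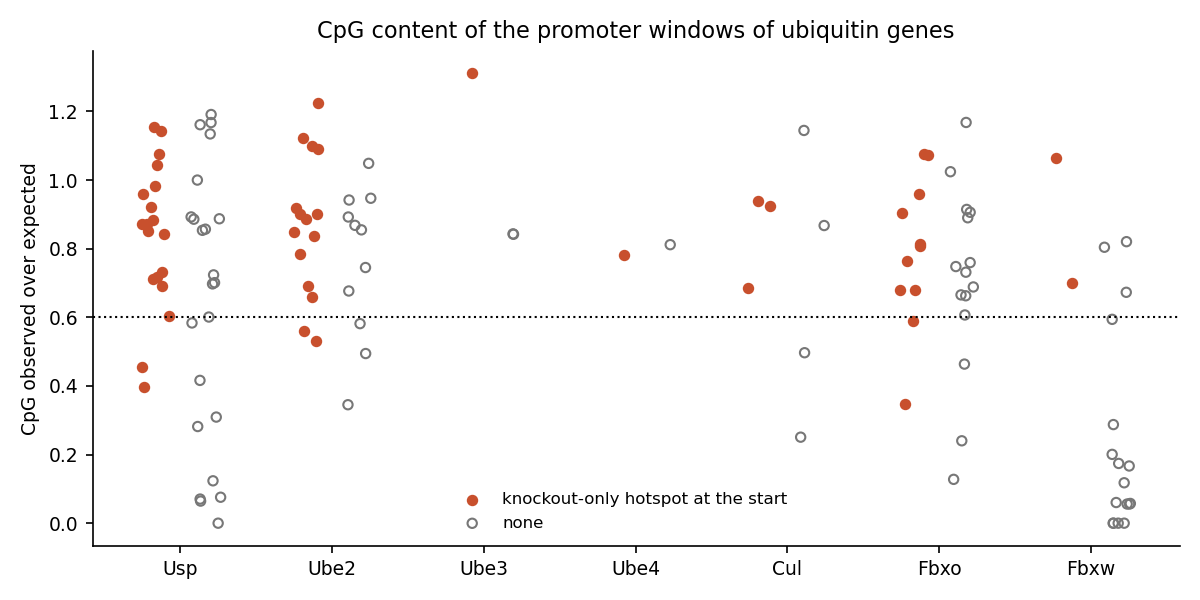
CpG content (observed over expected) of the promoter windows of 125 ubiquitin genes, by family, with genes that had a knockout-only hotspot within 1 kb of the listed start in orange and the others as open circles. The dotted line is the ratio of 0.6 that separated CpG-rich from CpG-poor windows; 46 of the 52 orange points lie above it, and the Fbxw points lie mostly near 0.

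Of the sequences searched, GGGCGG was in 76.9% of the 52 ubiquitin gene windows with a knockout-only hotspot and 52.1% of the 73 without one. Over all promoters it was in 74.9% of those with one, 36.6% of those without and 46.9% in all. CCGGAA was in 23.1% of the ubiquitin gene windows with a hotspot and 28.8% of those without, and over all promoters in 27.3% with, 19.3% in all and 16.4% without. The ubiquitin genes thus ran the other way from all promoters for these letters, over few windows. The same held for GCATGCG, in 3.85% with and 8.22% without (2 and 6 windows), beside 7.63% with, 3.41% without and 4.54% in all. CCAAT also ran the other way, in 26.9% with and 31.5% without, beside 40.9% with, 39.1% without and 39.6% in all promoters. TATAAA was in 5.77% with and 6.85% without, beside 5.48% with, 16.4% without and 13.4% in all. In the windows printed above, Ube2d3 and Fbxo30 hold 5 matches of GGGCGG each and Cul3 holds 3, whereas Usp11 and Usp26 hold none. GGGCGG contains a CG dinucleotide, so its share moves with CpG content. A match is a description of these letters and not a binding site.

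Inside the genes, over 1 kb from both ends, the lists were closer. A hotspot lay inside 53 of the 162 genes in the knockout (32.7%) and 47 in the wild type (29.0%), beside 21.3% and 18.9% of all protein-coding genes. Ubiquitin genes are longer, with a median of 31150 bp against 17329 bp, and per Mb of gene interior the knockout had 9.01 hotspots (exact Poisson 95% interval 6.90 to 11.5) and the wild type 8.28 (6.27 to 10.7). Over all protein-coding genes the densities were 7.79 in the knockout and 6.59 in the wild type. By family the counts of genes were 24 in the knockout and 20 in the wild type for Usp, 7 and 9 for Ube2, 4 and 4 for Cul, 11 and 7 for Fbxo and 3 and 3 for Fbxw.

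Of the 62 knockout hotspots inside ubiquitin genes, 25 were listed in the knockout alone, inside 22 of the 162 genes (13.6%), against 9.08% of all protein-coding genes. Per Mb of gene interior this was 3.63 (2.35 to 5.36), beside 2.43 over all protein-coding genes, which the interval takes in. The strongest were in Usp51 (638), Usp6nl (388), Usp34 (323) and Usp42 (309), with none listed in the wild type. Where a start was listed, 7 of 19 of these hotspots lay within 1 kb of an internal start of the same gene (36.8%, beside 32.0% over all genes). These were in Usp7, Usp34, Usp45, Ube2b, Ube4b, Fbxo7 and Fbxo33. None of 31 shared hotspots and none of 18 wild-type-only hotspots did, and over all genes those shares were 0.908% and 0.506%. Wild-type-only hotspots, 20 in all, lay inside 17 of the 162 genes (10.5%), against 5.02% of all protein-coding genes, and per Mb there were 2.91 (1.77 to 4.49), beside 1.21. The strongest were in Usp34 (187), Ube2a (186), Usp49 (151) and Uspl1 (127). In all, 13 ubiquitin genes, Usp34, Ube2a and Uspl1 among them, had both a knockout-only and a wild-type-only hotspot at an end or inside, at different places. This was not counted over all protein-coding genes, whose median length is shorter, so whether 13 of 162 is unusual cannot be told.

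The 37 shared hotspots inside ubiquitin genes were mostly lower in the knockout. Strengths of shared hotspots were compared relative to the median of autosomal shared hotspots in each list, which was 151 in the knockout and 182 in the wild type. On this scale 32 of the 37 were lower and 5 higher in the knockout, and the median log2 ratio of knockout over wild type was −1.15, beside −0.32 for 5402 shared hotspots inside all protein-coding genes and −0.01 for all 11487. More than 2-fold lower were 23 of 37 (62.2%), against 25.2% of those inside all protein-coding genes, and more than 2-fold higher were 0 of 37, against 7.35%. As deposited, the median log2 ratio of all shared hotspots was −0.28, so the unscaled values put the ubiquitin genes lower still.

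The strongest in the wild type lay inside Usp9x, with 651 in the knockout and 1963 in the wild type. Ube3a had 232 in the knockout and 1440 in the wild type, and Cul3 had 286 in the knockout and 1400 in the wild type. The same gene, Cul3, thus had a hotspot at its start in the knockout alone and an inner hotspot that was 4.06-fold lower on relative strength. Usp38 had 381 in the knockout and 1337 in the wild type, Cul5 had 507 and 1275, and Cul9 had 563 and 1216. Those 6 were all lower in the knockout, at log2 ratios of −2.36 to −0.84. The lowest ratio was that of Fbxo11, with 130 in the knockout and 999 in the wild type, a log2 ratio of −2.67 (counting interval −2.95 to −2.40). Usp47 had 77 in the knockout and 369 in the wild type, at −1.99.

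The exceptions were few and small. Ube4a had 152 in the knockout and 97 in the wild type, a log2 ratio of 0.92 (0.55 to 1.28). Usp43 had 183 in the knockout and 142 in the wild type (0.64), and Usp46 had 404 and 318 (0.61). Fbxo22 had 59 and 49 and Usp2 had 179 and 175, and their counting intervals of −0.07 to 1.14 and −0.01 to 0.61 take in 0. Cul4b on X was close to even, at 856 in the knockout and 1160 in the wild type (−0.17).

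**Figure D5:**
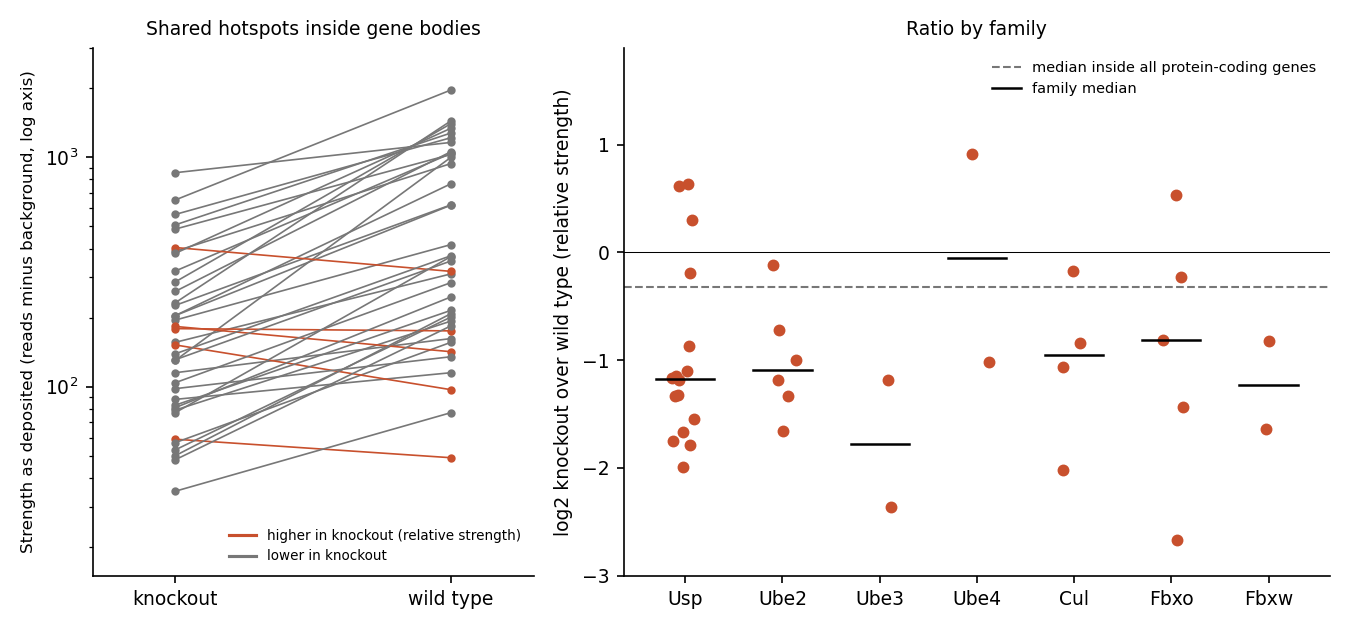
Left, strength as deposited (reads minus background, log axis) of the 37 shared hotspots inside ubiquitin genes in the knockout and the wild type, with a line for each hotspot. Right, log2 ratio of knockout over wild type on relative strength, by family, with family medians as short lines; the dashed line is the median inside all protein-coding genes, −0.32, and 32 of the 37 points lie below 0.

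Wild type strength is the denominator of this ratio, and a shared hotspot must also be listed in the knockout, so hotspots sorted by it show a lower ratio at higher strength by construction. The shared hotspots inside ubiquitin genes had a median wild type strength of 353, against 216 inside all protein-coding genes. Among the top 20% of shared hotspots by wild type strength, the median ratio was −1.33 inside ubiquitin genes, with 15 of 15 lower, and −1.06 inside all genes. In the 20% below these it was −1.15 over 7 hotspots, against −0.65 inside all genes, and in the next 20% it was −1.14 over 10, against −0.32. The weakest 40% held 5 hotspots in ubiquitin genes, with medians of −0.12 over 3 and −0.17 over 2, against 0.07 and 0.55 inside all genes, and 0 of the 5 were more than 2-fold lower. By the state of the gene ends, the median was −1.06 for the 19 hotspots in genes with a knockout-only end hotspot and −1.17 for the 18 in genes without one. Over all protein-coding genes those medians were −0.63 and −0.16, and with an SD of 0.85 over the 37 hotspots a difference of that size in the ubiquitin genes could not be resolved. Family medians were −1.09 for 6 hotspots in Ube2, −0.95 for 4 in Cul, −0.81 for 5 in Fbxo and −1.17 for 16 in Usp.

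A list of 89 other genes of the pathway was set beside them. A knockout-only hotspot stood at an end of 49 of the 89 (55.1%, 44.1 to 65.6%), against 25.5% of all protein-coding genes, and in the wild type a hotspot stood at an end of 7 of 89 (7.87%, 3.22 to 15.5%), against 1.99%. It was found at 8 of 10 cullin partners, 11 of 17 further HECT ligases, 15 of 26 deubiquitinases of other families, 8 of 18 Fbxl genes, 2 of 5 other F-box genes, 3 of 9 genes of E1 enzymes and the NEDD8 pathway and 2 of 4 ubiquitin genes. The strongest at an end was the shared hotspot of Tnfaip3, a ubiquitin-editing inhibitor of NF-kappaB, with 1293 in the knockout and 48 in the wild type. Brcc3, an X-linked deubiquitinase of the BRCA1-A complex, had 411 in the knockout and 65 in the wild type. As deposited, the strongest end hotspot of Otub2 was also higher in the knockout list (98 and 79). That of Herc3 was lower (225 in the knockout and 959 in the wild type), as was that of Smurf2 (287 and 359). Relative strength was not computed for these end hotspots, and the list medians of 151 and 182 differ by about as much as the Smurf2 values. At Uba6 (182 and 100) and Ddb1 (72 and 83) the strongest knockout end hotspot overlapped no wild type hotspot. The values of these pairs thus belong to different hotspots. Inside these genes 37 of 43 shared hotspots were lower in the knockout on relative strength, with a median log2 ratio of −0.95. Inside all protein-coding genes it was 3362 of 5402, with a median of −0.32. Of the 43, 24 were in HECT ligases, at a median of −1.26. The 9 in Fbxl genes had a median of −0.11, with 0 more than 2-fold lower and 2 more than 2-fold higher.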

How the data were processed

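DMC1 single-stranded DNA sequencing was made on 2 testis samples per genotype, and 1 hotspot list per genotype was deposited; whether the authors pooled the 2 samples is not stated. The build was mm10 and the tools included MACS2, BWA, Bowtie2 and CASAVA, per the submitters' processing notes, which give no roles. Per the file headers, each hotspot has a deposited count of reads, a background signal, a strength signal, a percent strength and a rank. In the deposited lists the strength equals the read count minus the background in 100% of hotspots. The percent strength is deposited as the part each hotspot has in the total of its list, and the rank is a deposited score that orders hotspots by strength. The names of the lists say that Y was left out, and whether starts count from 0 or 1 is not stated. Reads in hotspots came to 4203380 in the knockout and 4376692 in the wild type; total depth was not used here. With 1 list per genotype, no test was made, and intervals cover counting error only.

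Genes came from RefSeq (GRCm38.p6), and strand from the RefSeq promoter windows, which listed 125 of the 162 genes and 17274 of 21631 protein-coding genes; the others have no start assigned. A hotspot counted as being at an end if no more than 1 kb separated its centre from the nearer gene end, and inside when it lay between the ends and over 1 kb from both. Gene assignment was tested on simulated data. Intervals are exact (Clopper-Pearson for shares, Poisson for counts) at 95%, and counting intervals of ratios are normal approximations on the read counts. Python 3.11.15 with pandas 2.3.3, numpy 2.4.6, scipy 1.17.1 and matplotlib 3.10.9 was used.

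Named in the text were the 6 strongest knockout-only end hotspots of Usp, Ube2, Fbxo and Fbxw, every gene with a wild type end hotspot, all X genes, every Cul, Ube3 and Ube4 gene with an end hotspot, the strongest and most altered shared hotspots, the 4 strongest hotspots of a single list inside genes, tandem clusters and genes of known meiotic role; other names were chosen after their values were seen. The genes and lists were chosen with earlier results of these data known. The split by CpG content, the internal starts and the steps of wild type strength are descriptions. Alternatives were other windows, overlaps, symbol rules, strength limits, list sizes and scalings.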

Additional observations from a re-analysis of the deposited data

How the results depend on the processing

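Of 82 recomputed values, 66 stayed close to the main value and 16 moved further. Close meant within 1.5 times for counts and median strengths. For the median log2 ratio of shared hotspots inside genes it meant within the SD over hotspots (0.85), a wide limit. Only that ratio could change sign, and it did so under none of its alternatives. With a window of 500 bp, 0 ubiquitin genes had a wild type hotspot at an end, and with 2 kb 4 did, while a Ube4 gene then had a knockout-only one (1 of 2). A knockout-only hotspot stood at an end of 61 ubiquitin genes at 500 bp and of 76 at 2 kb. Over all protein-coding genes the share with a knockout-only end hotspot was 22.8% at 500 bp and 27.9% at 2 kb. The wild type share over all protein-coding genes was not computed at these windows. Keeping hotspots of a strength of at least 100 left 39 genes with a knockout end hotspot and 37 with a knockout-only one, of which 13 were Usp, 5 Fbxo and 1 Fbxw, beside 11.8% of all protein-coding genes, and the median strength became 175. Reducing the knockout list to the 13480 strongest, the size of the wild type list, left 43 genes with a knockout-only end hotspot. Of these 17 were Usp, 14 Ube2, 7 Fbxo, 3 Cul, 1 Ube3 and 1 Fbxw, and the share over all protein-coding genes was not computed. Ube2 had the highest share here and at a strength of at least 100 (42.4% in both), above Cul (37.5% in both). A strict reading of the symbols, which drops genes such as Ube2d3, left 7 of 15 Ube2 genes with a knockout-only end hotspot (46.7%), beside 26 of 55 for Usp (47.3%) and 4 of 8 for Cul (50%), so that Ube2 no longer had the highest share. With 500 bp it was 15 of 33 for Ube2 (45.5%), again below Cul. Counting hotspots at the end of 1 gene only left 9 Fbxo genes, and counting any centre between the gene ends put a knockout hotspot inside 86 genes. The median ratio of shared hotspots inside genes ranged from −1.42 to −1.13.

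No paired analysis was possible because the lists carry no replicate numbers, and leaving out a replicate was not possible for the same reason. The lists stop at strengths of 16 in the knockout and 18 in the wild type, so a hotspot of one list may exist below the threshold of the other. Total library depth was not used here, and its part in these limits was not tested.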
